A study of Mus musculus with 9 samples.

Results

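The complexins are small presynaptic proteins that control the last step of neurotransmitter release. In the hippocampal data they were represented by 3 genes, Cplx1, Cplx2 and Cplx3, picked by their symbols from the 24394 gene entries of the deposited count table. They were chosen because Cplx3 was lower in both groups of doxorubicin-injected mice, so the comparisons of these groups with sham are given for the complexins as values without a test. The hippocampus of C57BL6/J mice, an inbred laboratory strain, was taken postmortem, and its polyadenylated RNA was sequenced in 9 libraries, 3 per group. The doxorubicin group (Doxo in the labels) was injected with doxorubicin, an anthracycline chemotherapy drug. The doxorubicin plus MitoQ group was injected likewise and given MitoQ as a supplement, an antioxidant built on ubiquinone that is drawn into mitochondria. The sham group received saline. The sources used here give no doses, times or sex, and of age only that the mice were young. The labels do not say that each library came from its own mouse, so errors and p-values measure the spread between these libraries, which may be technical.

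A complexin binds the assembled SNARE complex, the bundle of syntaxin, SNAP-25 and synaptobrevin helices that pulls a synaptic vesicle onto the plasma membrane. It holds the complex partly zippered and supports fast fusion once synaptotagmin senses calcium. Complexin 1 and complexin 2 are the widespread forms in forebrain neurons, with complexin 2 prominent in excitatory cells. Complexin 3 is best known from ribbon synapses of the mouse retina and, in mouse cortex, marks layer 6b (the remnant of the embryonic subplate) and a class of interneurons. Unlike complexins 1 and 2 it carries a lipid anchor at its C-terminal end, attached to a cysteine.

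The end of the coding sequence shows that difference between the members. The last 30 coding bases of the transcripts Cplx1-201, Cplx2-201 and Cplx3-201 (GENCODE M21, GRCm38) are given 5′ to 3′, stop codon included, with capitals marking a cysteine codon 4 codons before the stop.
Cplx1: gggccactgcaggacatgttcaagaagtaa
Cplx2: gggccgctgcaggacatgttcaagaagtaa
Cplx3: caatcagctgagaagTGCcatatcatgtga
Only the Cplx3 sequence of these 3 has the cysteine codon there. Cplx1 and Cplx2 both encode 134 amino acids and were identical at 79.8% of 405 aligned coding bases, whereas Cplx3 encodes 158 and matched Cplx1 at 64.1% and Cplx2 at 63.7% of aligned bases. The longest run of bases shared exactly by Cplx1 and Cplx2 transcripts, which bears on whether their reads could be confused, was 32 bases long and lies in the coding sequence.
Cplx1 and Cplx2, shared run: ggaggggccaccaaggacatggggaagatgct
Cplx3 shared at most 12 bases in a row with Cplx1 and 13 with Cplx2. The sources used here give neither the read length nor the counting program.

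Cplx1 (ENSMUSG00000033615.9) lies on chromosome 5, 108518554 to 108550024, minus strand. Cplx2 (ENSMUSG00000025867.8) lies on chromosome 13, 54371349 to 54383917, plus strand. Cplx3 (ENSMUSG00000039714.9) lies on chromosome 9, 57599992 to 57606281, minus strand. All coordinates follow GENCODE M21 (GRCm38, the same assembly as mm10), and 0 annotated genes overlap any of the 3 spans. The annotated gene nearest to Cplx1, Gm43364, lies 57 bases away on the same strand. The gene nearest to Cplx3, Lman1l, ends 804 bases away on the same strand and had 0 to 2 counts per library.

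Library totals ranged from 24672520 counts in sham replicate 3 to 41214335 counts in doxorubicin plus MitoQ replicate 2. Expression levels are in CPM (counts per 1000000 counts of the library, with library sizes corrected by TMM). All 12 markers of hippocampal principal neurons looked for were detected in every library, with a summed level of 1510 to 1800 CPM. Against sham, 10 of the 12 were higher and 2 lower with doxorubicin, and likewise with doxorubicin plus MitoQ. The median log2 fold changes were 0.18 and 0.12, with 0.00 and 0.01 over all genes tested, and the summed levels overlapped those of sham. Of 15296 genes tested, edgeR's quasi-likelihood test called 0 (0.0%) in each of the 3 comparisons at a Benjamini-Hochberg adjusted p under 0.05. At an unadjusted p under 0.05 there were 1350 genes (8.83%) for doxorubicin against sham, 451 (2.95%) for doxorubicin plus MitoQ against sham and 505 (3.3%) for doxorubicin plus MitoQ against doxorubicin. DESeq2 called 44, 2 and 5 genes and limma-voom 0 in each.

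Cplx3, the member for which the family was chosen, lay lower in both injected groups. It had 4.23, 4.20 and 3.57 CPM in the doxorubicin libraries, 4.02, 4.44 and 4.27 CPM in the doxorubicin plus MitoQ libraries and 7.98, 7.21 and 7.40 CPM in the sham libraries. All 6 libraries of doxorubicin-injected mice thus lay below all 3 sham libraries, while the libraries of the injected groups overlapped. The underlying reads were 109, 106 and 98 counts with doxorubicin, 128, 185 and 162 counts with doxorubicin plus MitoQ and 204, 258 and 185 counts in sham. The raw count of 185 was shared by sham replicate 3 and doxorubicin plus MitoQ replicate 2, the shallowest and the deepest library, so doxorubicin and sham separate in raw counts and in CPM, and doxorubicin plus MitoQ and sham separate in CPM with a tie in raw counts.

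Cplx3 averaged 4.0 ± 0.37 CPM with doxorubicin and 7.53 ± 0.40 CPM in sham (SD, n = 3 each), a log2 fold change of -0.91 (SE 0.12) that corresponds to a level 0.532 times that of sham. With doxorubicin plus MitoQ it averaged 4.24 ± 0.21 CPM (SD, n = 3), a log2 fold change of -0.82 against sham (SE 0.12), or 0.565 times the sham level. These values chose the gene and are a description; the 2 comparisons also share the sham libraries. Among all genes tested, 1038 (6.79%) had doxorubicin libraries lying entirely below sham, 765 (5.0%) had doxorubicin plus MitoQ libraries entirely below sham, and 313 (2.05%) had all 6 injected libraries below all 3 sham libraries, Cplx3 being 1 of these 313. In the other direction, 6.2% of genes had doxorubicin libraries entirely above sham, 4.11% had doxorubicin plus MitoQ libraries entirely above sham, and 178 genes (1.16%) had all 6 injected libraries above all 3 sham libraries. In bulk tissue, fewer cells that express a gene and less of its RNA per cell cannot be told apart.

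**Figure D1:**
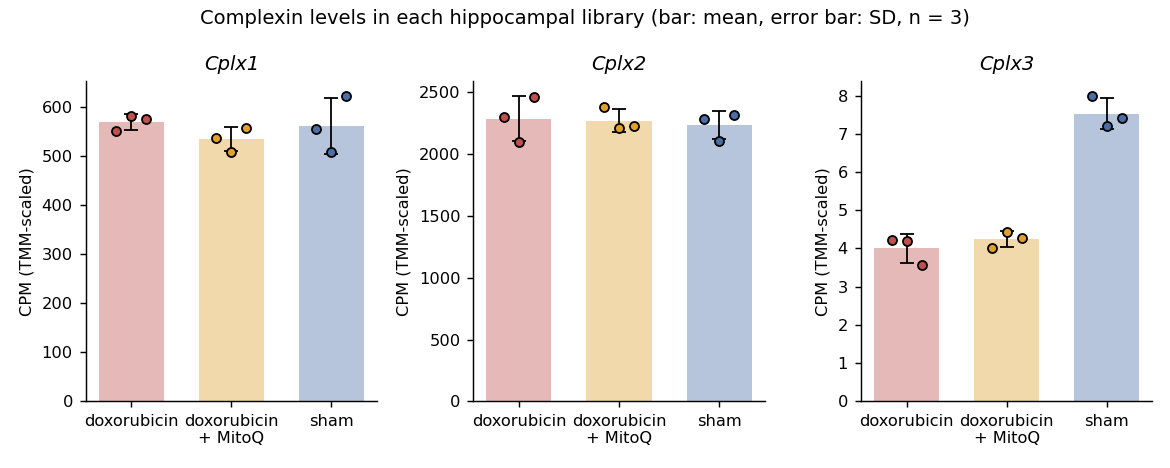
Level of each complexin in CPM (vertical axes, each from 0) in doxorubicin, doxorubicin plus MitoQ and sham libraries; points are libraries, bars the mean and error bars the SD of 3 libraries. The Cplx3 points of both injected groups lie between 3.57 and 4.44 CPM and those of sham between 7.21 and 7.98 CPM, while the groups overlap for Cplx1 and Cplx2.

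The spread of Cplx3 within each group was below the counting error of the single libraries of that group (the square root of the count over the count, which covers counting error only). Its coefficient of variation was 9.35% in doxorubicin, 4.99% in doxorubicin plus MitoQ and 5.34% in sham libraries. The counting errors were 9.58% to 10.1%, 7.35% to 8.84% and 6.23% to 7.35% in the same order. Cplx3 was chosen for its difference between these groups, so its spread is a description. Cplx1, with a counting error under 1% in every library (0.686% to 0.84%), varied by 2.87%, 4.53% and 10.2% in the same order of groups, all above its counting error.

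MitoQ supplementation gave no detectable difference in any of the 3 members. The choice of genes set both injected groups against sham, not against each other, but it did ask for Cplx3 to be low in both. Cplx3 was at 4.24 CPM with doxorubicin plus MitoQ and 4.0 CPM with doxorubicin alone, a log2 fold change of 0.09 (SE 0.12, edgeR adjusted p = 0.968). The 95% interval of that difference runs from -11.7% to 27.7%, so differences within these bounds remain compatible with the data. The interval is not a limit of detection. For Cplx1 the log2 fold change was -0.09 (SE 0.07, edgeR adjusted p = 0.968, interval -16% to 4.84%), and for Cplx2 it was -0.01 (SE 0.07, edgeR adjusted p = 0.997, interval -11% to 10.9%). The groups overlapped for all 3 members, where 4.98% of genes tested did not overlap with MitoQ lower and 4.73% with MitoQ higher.

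Cplx1, one of the widespread neuronal forms, had 552, 583 and 575 CPM in the doxorubicin libraries, 537, 510 and 558 CPM in the doxorubicin plus MitoQ libraries and 555, 509 and 623 CPM in the sham libraries. The highest and the lowest of the 9 values were both sham libraries. Its log2 fold change against sham was 0.02 (SE 0.07) for doxorubicin and -0.07 (SE 0.07) for doxorubicin plus MitoQ. These differences are smaller than the spread within sham.

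Cplx2, the main complexin of excitatory forebrain neurons, had 2299, 2102 and 2464 CPM in the doxorubicin libraries, 2379, 2209 and 2232 CPM in the doxorubicin plus MitoQ libraries and 2285, 2107 and 2320 CPM in the sham libraries. All 3 groups overlapped, and the widest range was within doxorubicin. Its log2 fold change against sham was 0.03 (SE 0.07) for doxorubicin and 0.02 (SE 0.07) for doxorubicin plus MitoQ.

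**Figure D2:**
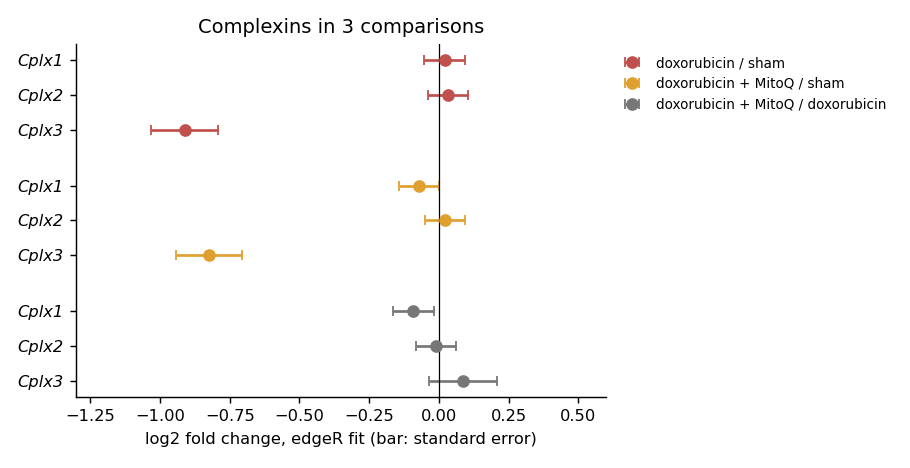
Log2 fold change of each complexin in the edgeR fit (horizontal axis) for doxorubicin against sham, doxorubicin plus MitoQ against sham and doxorubicin plus MitoQ against doxorubicin; bars are standard errors. Cplx3 stands at -0.91 and -0.82 against sham and at 0.09 between the injected groups, and Cplx1 and Cplx2 lie within 0.1 of 0 throughout.

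Compared per length of annotated exon, the order of the levels was Cplx2, Cplx1 and then, far lower, Cplx3 in all 9 libraries. With doxorubicin the levels were 464 ± 36.7 CPM per kb for Cplx2, 260 ± 7.48 for Cplx1 and 1.36 ± 0.13 for Cplx3. With doxorubicin plus MitoQ they were 461 ± 18.8, 244 ± 11.1 and 1.44 ± 0.07 CPM per kb. In sham they were 454 ± 23.1, 257 ± 26.1 and 2.55 ± 0.14 CPM per kb (SD, n = 3 in each group). Neighbours in this order differed by far more than their spread. Exon lengths were 4928, 2189 and 2953 bases for Cplx2, Cplx1 and Cplx3.

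The mix within the family does not depend on how libraries are scaled. Cplx3 made up 0.199%, 0.205% and 0.158% of complexin counts per length in the doxorubicin libraries, 0.187%, 0.220% and 0.204% in the doxorubicin plus MitoQ libraries and 0.376%, 0.368% and 0.331% in the sham libraries. The ratio of Cplx2 to Cplx1 per length averaged 1.78 ± 0.16 with doxorubicin, 1.89 ± 0.10 with doxorubicin plus MitoQ and 1.77 ± 0.10 in sham (SD, n = 3), and the groups overlapped.

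Cplx4, the other lipid-anchored complexin of the mouse retina, was close to absent and did not pass the filter on low counts. It had 1, 1 and 2 counts in the doxorubicin libraries, 8, 0 and 4 counts in the doxorubicin plus MitoQ libraries and 0 in each sham library. A count of 0 in a sham library allows up to 3 counts, or 0.0858 to 0.122 CPM, for counting error only. Only doxorubicin plus MitoQ replicates 1 and 3 were above 3 counts, and no fold is given.

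The partners of the complexins were examined as 48 further genes of vesicle release in 4 lists, all of which passed the filter. None was called in any comparison. Against sham, 32 of 48 were higher and 16 lower with doxorubicin (median log2 fold change 0.06, with 0.00 over all genes tested), and 29 were higher and 19 lower with doxorubicin plus MitoQ (median 0.02, with 0.01 over all genes). The last count rests on sham replicate 2, without which 18 of 48 were higher with doxorubicin plus MitoQ. Between doxorubicin plus MitoQ and doxorubicin, 14 were higher and 34 lower (median -0.05, with 0.00 over all genes). At an unadjusted p under 0.05 there were 11 of the 48 for doxorubicin against sham (6 higher and 5 lower), where 8.83% of all genes tested passed. There were 2 for doxorubicin plus MitoQ against sham, both lower, and 3 between the injected groups, 2 of them higher with MitoQ, where 2.95% and 3.3% of all genes passed. The summed CPM of the 48 did not overlap between doxorubicin plus MitoQ (17951 to 19046) and doxorubicin (19105 to 19947). Taken singly, 1 of the 48 did not overlap with MitoQ lower and 1 with MitoQ higher, where 4.98% and 4.73% of all genes tested did. A list of 6 nuclear RNAs that includes Malat1, which can mark differences in RNA quality, had 5 higher and 1 lower with doxorubicin and 3 of each with doxorubicin plus MitoQ, against sham. Its sum was 4205 to 4829 CPM with doxorubicin, 3715 to 4328 CPM with doxorubicin plus MitoQ and 2933 to 4745 CPM in sham. The part of these RNAs in the release genes' levels was not tested.

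Of the SNARE proteins that a complexin grips, Snap25 was at 2566 CPM with doxorubicin and 2447 CPM with doxorubicin plus MitoQ, against 2422 CPM in sham. The synaptobrevin gene Vamp2 was at 1178 and 1144 CPM in these injected groups, against 1149 CPM in sham. The syntaxin gene Stx1a was at 96.8 CPM with doxorubicin and 95.1 CPM with doxorubicin plus MitoQ, against 106 CPM in sham. The log2 fold changes of these 3 genes against sham lay between -0.16 (Stx1a, doxorubicin plus MitoQ) and 0.08 (Snap25, doxorubicin). Snap25 and Vamp2 were picked for their role after values were seen. The ATPase gene Nsf, whose product takes spent SNARE complexes apart, was at 1369 ± 23.4 CPM with doxorubicin and 1269 ± 58.5 CPM in sham, without overlap (edgeR adjusted p = 0.576).

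The lowest fold change of the 48 was that of Unc13c, a member of the Munc13 family that primes vesicles. It was at 19.5 ± 4.52 CPM with doxorubicin and 28.5 ± 5.53 CPM in sham, and the groups overlapped. The log2 fold change was -0.55 (SE 0.18, edgeR adjusted p = 0.485). With doxorubicin plus MitoQ it was at 20.8 ± 2.99 CPM (log2 fold change -0.45 against sham, SE 0.18, edgeR adjusted p = 1.0). Cplx3 at -0.91 and -0.82 thus lay below each of the 48 in both comparisons with sham, which describes how it was chosen.

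Among active zone genes, Rims3, a short member of the RIM family, had 12.0, 10.9 and 9.84 CPM in the doxorubicin libraries, 10.4, 13.5 and 11 CPM in the doxorubicin plus MitoQ libraries and 15.1, 16.2 and 14.4 CPM in the sham libraries. As with Cplx3 and 2.05% of all genes tested, all injected libraries lay below all sham libraries. Its log2 fold changes against sham were -0.48 (SE 0.12, edgeR adjusted p = 0.465) and -0.38 (SE 0.12, edgeR adjusted p = 1.0). The RIM-binding protein gene Rimbp2 lay on the other side, at 157 ± 19.4 CPM with doxorubicin and 126 ± 12.6 CPM in sham, also without overlap (edgeR adjusted p = 0.485).

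Calcium sensors and vesicle proteins were likewise not called. Syt7, a synaptotagmin of slow release, was at 541 ± 69.4 CPM with doxorubicin and 455 ± 44.5 CPM in sham, with overlapping groups (edgeR adjusted p = 0.514). Rab3b, a vesicle GTPase, was at 50.3 ± 7.74 CPM with doxorubicin and 59.5 ± 2.24 CPM in sham, without overlap (edgeR adjusted p = 0.519). The vesicle glycoprotein gene Sv2c was at 22.5 ± 1.75 CPM with doxorubicin plus MitoQ and 18.1 ± 2.92 CPM with doxorubicin (log2 fold change 0.31, SE 0.12, edgeR adjusted p = 0.968), and these groups did not overlap.

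**Figure D3:**
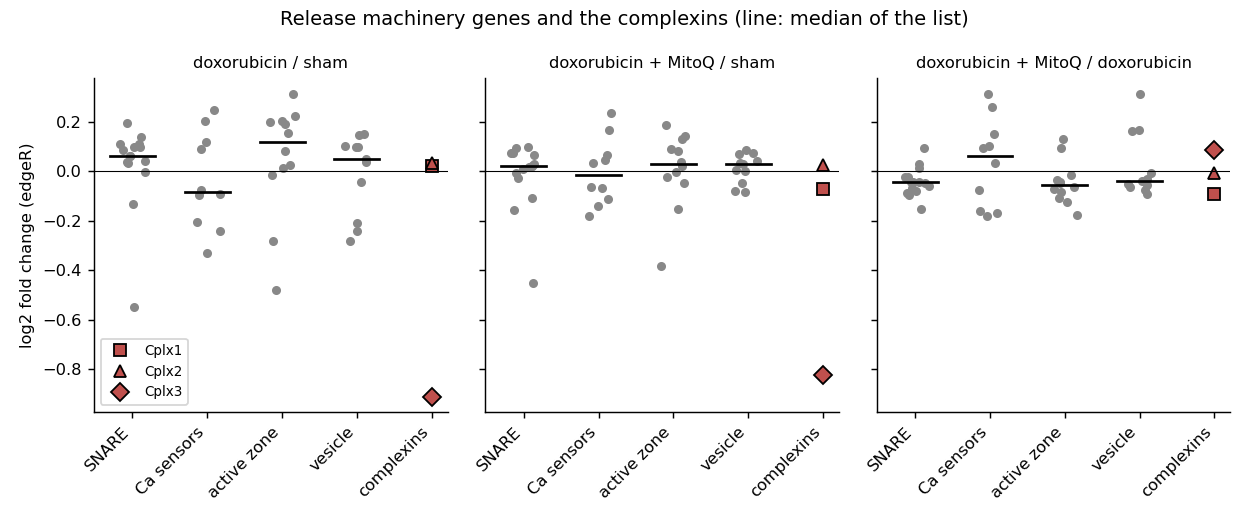
Log2 fold changes (vertical axis) of 48 release machinery genes in 4 lists (grey points, line at the median of each list) and of the 3 complexins (coloured symbols) in each comparison. Cplx3 lies below every grey point in both comparisons with sham, and Unc13c at -0.55 and -0.45 is the lowest grey point there.

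Per exon length, the complexins take very different places among the 51 genes made up of the 3 members and these 48. In sham, Cplx2 ranked first at 454 CPM per kb, ahead of Snap25 at 357 and Vamp2 at 302. Cplx1 ranked 5 at 257, between Rab3a at 267 and Syp at 253, and does not differ from either beyond its SD of 26.1. Cplx3 ranked 45 at 2.55 CPM per kb, between Rims4 at 2.91 and Sv2c at 2.27. Its distance to Sv2c is within their summed SDs (0.14 and 0.23), and that to Rims4 (SD 0.13) is beyond them.

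Markers of the cortical cells in which Cplx3 is known to be expressed were read beside it. All 8 markers of layer 6b and subplate neurons, which are cortical and border the hippocampus, were lower than in sham with doxorubicin (median log2 fold change -0.35) and with doxorubicin plus MitoQ (median -0.22), and 0 were called. The lowest counts with 1 library left out were 6 of 8 in each comparison, without doxorubicin replicate 3 and without doxorubicin plus MitoQ replicate 1. Their summed level was 118, 124 and 72.0 CPM in the doxorubicin libraries, 84.2, 132 and 116 CPM in the doxorubicin plus MitoQ libraries and 119, 144 and 120 CPM in the sham libraries, with overlapping groups. None of the 8 was at 0 in any library.

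Ctgf, which encodes a secreted matrix protein and is the classic layer 6b marker of the list, had 10.7, 7.02 and 9.91 CPM in the doxorubicin libraries, 5.12, 8.38 and 6.30 CPM in the doxorubicin plus MitoQ libraries and 14.4, 15.5 and 13.2 CPM in the sham libraries. All injected libraries lay below all sham libraries, as for Cplx3 and for 2.05% of all genes tested. Of the 8 listed genes, 2 lay entirely below sham in each comparison, where 6.79% and 5.0% of all genes tested did. Its log2 fold change against sham was -0.64 with doxorubicin (SE 0.19, edgeR adjusted p = 0.485) and -1.12 with doxorubicin plus MitoQ (SE 0.19, edgeR adjusted p = 1.0). Moxd1, a monooxygenase-like gene of the same layer, was at 6.95 ± 1.16 CPM with doxorubicin and 9.23 ± 1.23 CPM in sham, without overlap.

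The neurogliaform and Lamp5 interneuron list, the other known cortical source of Cplx3, was lower in 6 of 7 members with doxorubicin and in 4 of 7 with doxorubicin plus MitoQ (medians -0.08 and -0.03), with 0 called. Its summed level was 396 to 498 CPM with doxorubicin and 461 to 511 CPM with doxorubicin plus MitoQ, against 467 to 508 CPM in sham. Lamp5 itself, a membrane protein gene of these cells, was at 36.5 ± 0.83 CPM with doxorubicin plus MitoQ and 45.6 ± 4.73 CPM in sham, without overlap (edgeR adjusted p = 1.0). The general GABAergic list was lower in 7 of 8 members with doxorubicin and 5 of 8 with doxorubicin plus MitoQ, with medians of -0.04 and -0.03 and sums of 1294 to 1366 CPM and 1357 to 1376 CPM, against 1298 to 1450 CPM in sham.

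Markers of tissue next to the hippocampus were read in the same way, and none of them was called. Neocortical layer markers were lower in 9 of 10 members with doxorubicin and 6 of 10 with doxorubicin plus MitoQ (medians -0.21 and -0.05), and their summed level was 382 to 441 CPM with doxorubicin and 430 to 469 CPM with doxorubicin plus MitoQ, against 456 to 483 CPM in sham. Without doxorubicin replicate 3 the first count was 7 of 10, and without doxorubicin plus MitoQ replicate 1 the second was 4 of 10. Tshz2 was the lowest of this list at log2 fold changes of -1.07 and -0.63, and the highest member was at 0.36 and 0.17. All injected libraries of Tshz2 (33.8 to 81.0 CPM) lay below all sham libraries (83.8 to 108 CPM), as for 2.05% of all genes tested. Fibroblast and meningeal markers were lower in 8 of 8 with either treatment (medians -0.96 and -0.43), with sums of 38.7 to 76.2 CPM and 61.5 to 105 CPM, against 90.3 to 125 CPM in sham. At an unadjusted edgeR p under 0.05 there were 7 and 4 of these 8, where 8.83% and 2.95% of all genes tested passed. Thalamus and habenula markers were lower in 5 and 7 of 8 tested (medians -0.13 and -0.24), with sums of 84.2 to 111 CPM and 90.5 to 106 CPM, against 85.8 to 107 CPM in sham. Among these, Slc17a6 was lowest at log2 fold changes of -1.20 and -0.60. All its injected libraries (8.09 to 19.0 CPM) lay below all sham libraries (20.4 to 26.7 CPM). Prkcd was highest, at 0.91 and 0.71. In doxorubicin replicates 1 and 2, 2 of the 10 listed thalamus and habenula genes were at 0.

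The sums of these lists in single libraries stand beside Cplx3 as follows. In doxorubicin plus MitoQ replicate 2 the layer 6b, neocortical and fibroblast sums, at 132, 469 and 105 CPM, all lay within the range of sham, and Cplx3 was at 4.44 CPM there. Single members of these lists did not all follow the sums in that library. Ctgf at 8.38, Cux2 at 27.9, Tshz2 at 81.0 and Col1a1 at 7.18 CPM lay below every sham library. Moxd1 at 8.64 and Ogn at 9.17 CPM lay within the sham range, and Etv1 at 85.6 CPM lay above it. In doxorubicin replicate 2, with Cplx3 at 4.20 CPM, the layer 6b sum of 124 CPM lay within the range of sham, and the neocortical and fibroblast sums of 441 and 52.7 CPM lay below it. In doxorubicin replicate 3, with the lowest Cplx3 level at 3.57 CPM, the 3 sums were 72.0, 382 and 38.7 CPM, each the lowest of the 9 libraries. In the remaining injected libraries the 3 sums also all lay below the range of sham. They were 118, 416 and 76.2 CPM in doxorubicin replicate 1, with Cplx3 at 4.23 CPM. Doxorubicin plus MitoQ replicate 1 had 84.2, 430 and 80.5 CPM, with Cplx3 at 4.02 CPM. Doxorubicin plus MitoQ replicate 3 had 116, 434 and 61.5 CPM, with Cplx3 at 4.27 CPM. Choroid plexus markers were higher than in sham in 7 of 7 with either treatment (medians 0.25 and 0.86), with 0 called. Their sum ranged from 85.5 to 5032 CPM within sham, and Cplx3 was at 7.98 and 7.21 CPM in these 2 libraries. Over the injected libraries it ranged from 75.0 to 5274 CPM, with Cplx3 at 4.20 and 4.27 CPM at its ends. The part of any of these lists in the level of Cplx3 was not tested.

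**Figure D4:**
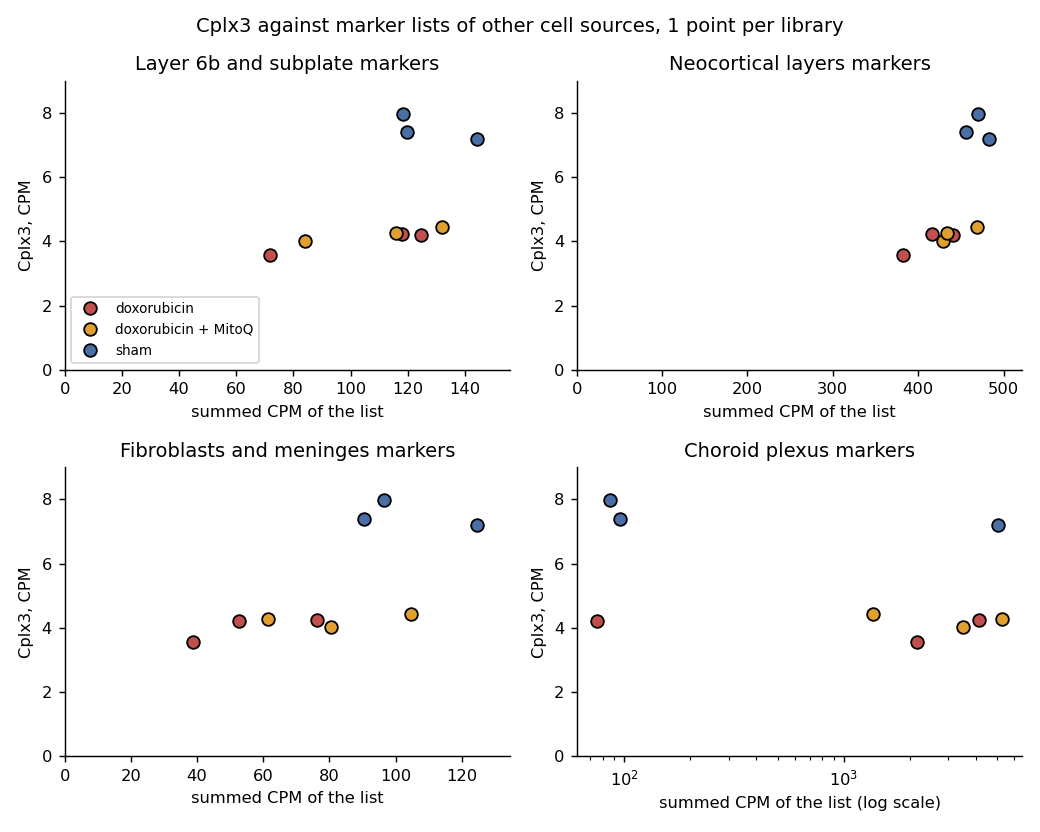
Cplx3 in CPM (vertical axis) against the summed CPM of 4 marker lists (horizontal axis, log scale for choroid plexus), with 1 point per library of doxorubicin, doxorubicin plus MitoQ and sham. Cplx3 lies at or below 4.44 CPM in all injected libraries and at or above 7.21 CPM in sham. The layer 6b sums run from 72.0 to 132 CPM in the injected libraries and from 119 to 144 CPM in sham. The part of any list in the level of Cplx3 was not tested.

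The genes whose profile over the 9 libraries was most like that of Cplx3 were sought among 13870 other genes averaging 1 CPM or more, by the root mean square difference of log2 CPM after each gene was centred on its own mean. The closest was Igfbp6, whose product binds insulin-like growth factors, at a difference of 0.16. It had 9.05, 8.56 and 8.38 CPM with doxorubicin, 8.92, 11.6 and 10.5 CPM with doxorubicin plus MitoQ and 15.4, 14.4 and 13.5 CPM in sham. Its injected libraries, too, all lay below sham, by log2 fold changes of -0.74 (SE 0.11) and -0.48 (SE 0.11).

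Efna5, which encodes the axon guidance ligand ephrin A5, followed at a difference of 0.20. It averaged 7.09 ± 1.52 CPM with doxorubicin and 7.75 ± 0.34 CPM with doxorubicin plus MitoQ, against 10.8 ± 1.15 CPM in sham (SD, n = 3 each). Next came the transcription factor gene Msc (0.20), Rnd1 (0.20), the guanine nucleotide exchange factor gene Rasgef1c (0.20) and B230216N24Rik (0.21). Rnd1 was at 5.11 ± 0.75 and 6.37 ± 0.52 CPM in the injected groups, against 8.95 ± 1.30 CPM in sham. Msc, Rasgef1c and B230216N24Rik were low, with means of 0.906 to 2.85 CPM over the groups. The other complexins were far from this profile, with Cplx1 at 0.42 and Cplx2 at 0.44, ranks 5272 and 7698 of the 13870. The likeness is a description over 9 libraries, whose depths all these genes share.

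**Figure D5:**
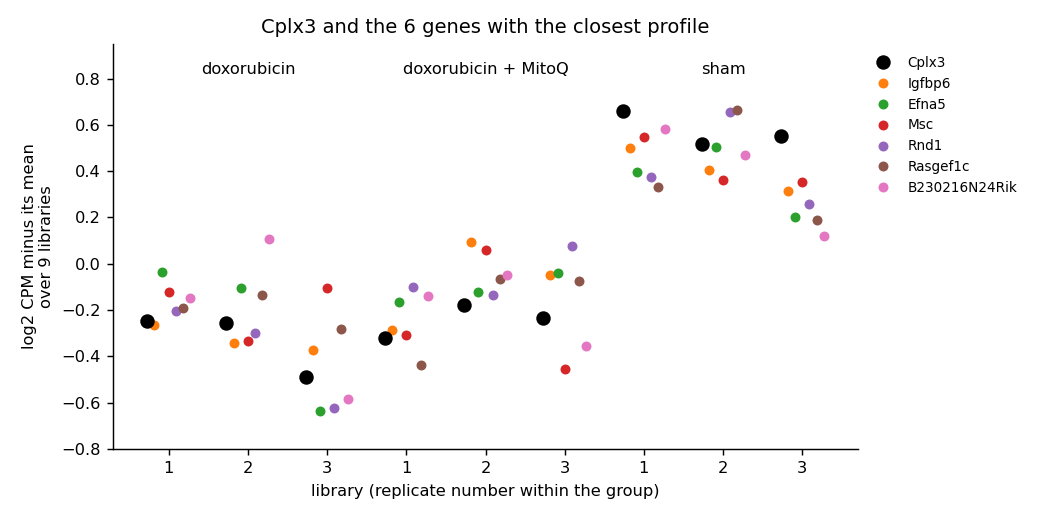
Log2 CPM minus its mean over the 9 libraries (vertical axis) for Cplx3 (black) and the 6 genes with the closest profile, by library in doxorubicin, doxorubicin plus MitoQ and sham (horizontal axis, replicate number). For Cplx3 and each of the 6 genes every injected library lies below every sham library, as for 2.05% of all genes tested. The 6 genes were picked for closeness to the profile of Cplx3.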

How the data were processed

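The authors deposited raw read counts per gene symbol for 9 libraries in 1 table; STAR, DESeq2 and mm10 are named per the submitters' processing notes, and polyA selection and a TruSeq kit per the labels. The sources used here give no tool versions, strand setting, counting program or annotation. Entries in which a date stands for the symbol (27 of 24421, 0.309% to 0.322% of counts) were left out; 0 columns belonged to no sample. Genes passing filterByExpr (minimum count 10) were scaled by TMM and fitted over all 9 libraries with edgeR 4.0.16 (quasi-likelihood F test, Benjamini-Hochberg adjustment over 15296 genes) in R 4.3.3. The SE of a log2 fold change is its size divided by the square root of F. An exact test of 3 against 3 libraries cannot give a two-sided p under 0.1, so tests rest on this pooled model, which was tested on simulated data.

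Named were the members, Cplx4, the 6 nearest profiles and up to 2 genes with the smallest p per list and comparison. The members and the 13 gene lists (124 genes, all found, with an older symbol for 1) were chosen with earlier results of these data known. Exon lengths, positions and sequences come from GENCODE M21. Same-numbered libraries did not deviate together (correlations of -0.50 to 0.36), so replicate numbers were not used as pairs. Tried as alternatives were DESeq2 1.42.0, limma-voom (limma 3.58.1), median-of-ratios scaling, 2 other filters, fits of the compared groups alone, replicate number as a block, and fits without each library in turn. Figures were drawn with matplotlib 3.10.9.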

Additional observations from a re-analysis of the deposited data

How the results depend on the processing

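Under the 7 other settings and each left-out library, Cplx3 kept its direction against sham. Its log2 fold change ranged from -0.91 to -0.91 (doxorubicin) and -0.83 to -0.81 (doxorubicin plus MitoQ) over the settings, and from -0.96 to -0.83 and -0.87 to -0.78 over the left-out libraries. Between the injected groups Cplx3 ranged from 0.01 to 0.13, Cplx1 from -0.12 to -0.06 and Cplx2, which turned sign, from -0.0657 to 0.0472 when 1 library was left out. In this comparison between the injected groups, no member was called under any setting. Against sham, leaving out 1 library gave Cplx1 -0.05 to 0.09 for doxorubicin and -0.14 to 0.00 for doxorubicin plus MitoQ, and Cplx2 -0.02 to 0.08 and -0.02 to 0.05. With a replicate block, Cplx3 was at -0.91, -0.82 and 0.09 in the 3 comparisons, and 2 genes were called for doxorubicin against sham. DESeq2 called 44, 2 and 5 genes for doxorubicin against sham, doxorubicin plus MitoQ against sham and doxorubicin plus MitoQ against doxorubicin. With no filter 1 and 2 genes were called in the first and the last of these. Leaving out 1 library gave 0 to 1, 0 to 3 and 0 to 3 calls, each highest without doxorubicin plus MitoQ replicate 2; the cause was not tested. Release machinery genes were called 0 times throughout; 18 of the 48 were higher with doxorubicin plus MitoQ than in sham without sham replicate 2, against 29 with it. Leaving out libraries for the list counts was chosen after seeing the data. Of the 3 members Cplx3 had the fewest counts, 98 to 258 per library.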
